A study of Homo sapiens with 6 samples.

Results

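The keratins and keratin-associated proteins were followed in SK-CO15 cells, a line from a human colon adenocarcinoma, after knockdown of NHE3, the sodium/hydrogen exchanger encoded by SLC9A3. Genes were taken by symbol: KRT followed by digits and an optional letter, or KRTAP followed by digits. Of 14884 genes with a named probe set, 133 met this rule, comprising 47 keratins, 84 genes of keratin-associated proteins (KRTAP), the pseudogene KRT42P and the antisense RNA KRTAP5-AS1. RefSeq holds 181 such symbols, and the 48 without a named probe set, among them KRT6A, KRT6B, KRT17, KRT34, KRT81, KRT82, KRT86 and KRT222, were not analysed here. The NHE3kd cells carried a lentiviral pool of shRNAs against SLC9A3 driven by the U6 promoter, and the Ctrl cells the same kind of lentivirus with a scrambled shRNA. Both populations were sorted on the EGFP of the vector and selected with puromycin, stayed mixed without picking of clones, and were grown to confluence. RNA of 3 NHE3kd samples (numbered 2, 3 and 10) and 3 Ctrl samples (1, 4 and 9) was hybridised to Affymetrix Human Gene 2.0 ST arrays. Whether they were grown as independent cultures is not stated, and the p-values below therefore describe variation among the arrayed samples that could be purely technical.

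Keratins are the intermediate filament proteins of epithelia, and each filament is built from pairs of an acidic type I and a basic type II chain. The pair in use marks the epithelium: KRT8 with KRT18, joined by KRT19 and KRT20, in simple epithelia such as the colon, KRT5 with KRT14 in basal and KRT1 with KRT10 in suprabasal keratinocytes, KRT4 with KRT13 in wet stratified mucosa, and KRT6 chains with KRT16 or KRT17 in wounded or fast-dividing epidermis. Hair keratins and the root sheath keratins belong to the hair follicle, where KRTAP proteins, either rich in cysteine or rich in glycine and tyrosine, form the matrix that cross-links the hair keratin filaments. Type I genes lie in a cluster on chromosome 17 and type II genes in a cluster on chromosome 12, with KRT18 as the type I gene inside the type II cluster.

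The deposited values were log2 values centred on the mean of the Ctrl arrays, so that each value below is a log2 difference from the Ctrl mean and no expression level is known. A transcript that is absent and a transcript that is present at an equal amount in both groups therefore cannot be told apart here, and neither the colonic origin of the cells nor the dimness of a probe set could be checked from levels. SLC9A3 had no named probe set, and the knockdown itself was not analysed here. Of 12 measured markers of colonic epithelium (16 listed) 1 was called, VIL1, higher in NHE3kd (8.33%, beside 14.5% of all named genes). Of the 12, 6 lay below 0 (50%, beside 50.3% of all named genes). The groups did not overlap for 4 (33.3%, beside 35.8% of all named genes), 2 higher and 2 lower. The higher ones were VIL1 and CEACAM6, at 0.77 and 0.33, and the lower ones KRT20 and TFF3, at -0.86 and -0.29. None of 5 measured mesenchymal markers (10 listed) was called (0 of them at an unadjusted p under 0.05). Of 2 measured leukocyte markers (5 listed) CD68 was called lower, while CD14 differed by 0.14 without a call. CD68 had -1.68, -1.40 and -1.45 in NHE3kd, against 0.18, 0.20 and -0.38 in Ctrl. Array medians over all probe sets lay between -0.018 and 0.0018. A gene was called at an adjusted p under 0.05 by limma over all 48144 probe sets, and an exact permutation test of 3 against 3 arrays could not go below 0.1.

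Few keratin and KRTAP genes were called between NHE3kd and Ctrl cells, and those called were lower in NHE3kd. Of the 133 genes 3 were called, or 2.26%, while 14.5% of all named genes were called. All 3 were lower in NHE3kd cells: KRT16, KRT6C and KRTAP5-1. No member was called higher, a direction in which 9.96% of all named genes were called, and the lower direction held 4.51% of all named genes. At an unadjusted p under 0.05 the members counted 16, of which 15 were lower and 1 was higher, against a background of 32.5% of all named genes, 12.3% lower and 20.2% higher. As a share the members reached 12%. The 3 calls were lost without moderation of the variances, with unequal variances, after quantile normalization and in a test against 1.5-fold, settings that called between 0.0134% and 2.89% of all named genes.

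The changes of the members were small next to those of other genes. The log2 fold change was under 0.1 in size for 100 of 133 members (75.2%) and for 44.8% of all named genes. Its 95% confidence interval lay within a 1.5-fold change in either direction for 120 members (90.2%), against 75.7% of all named genes. The median within-group standard deviation was 0.074 over the members and 0.11 over all named genes, so the arrays also varied less among themselves for these genes. With no expression level known, small changes and small spread do not tell unchanged transcripts from absent ones. The median log2 fold change was -0.028 for the members and -0.00082 for all named genes, and 94 members (70.7%) lay below 0, where 50.3% of all named genes did. Bringing the arrays to the same median moved the members' median to -0.021.

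**Figure D1:**
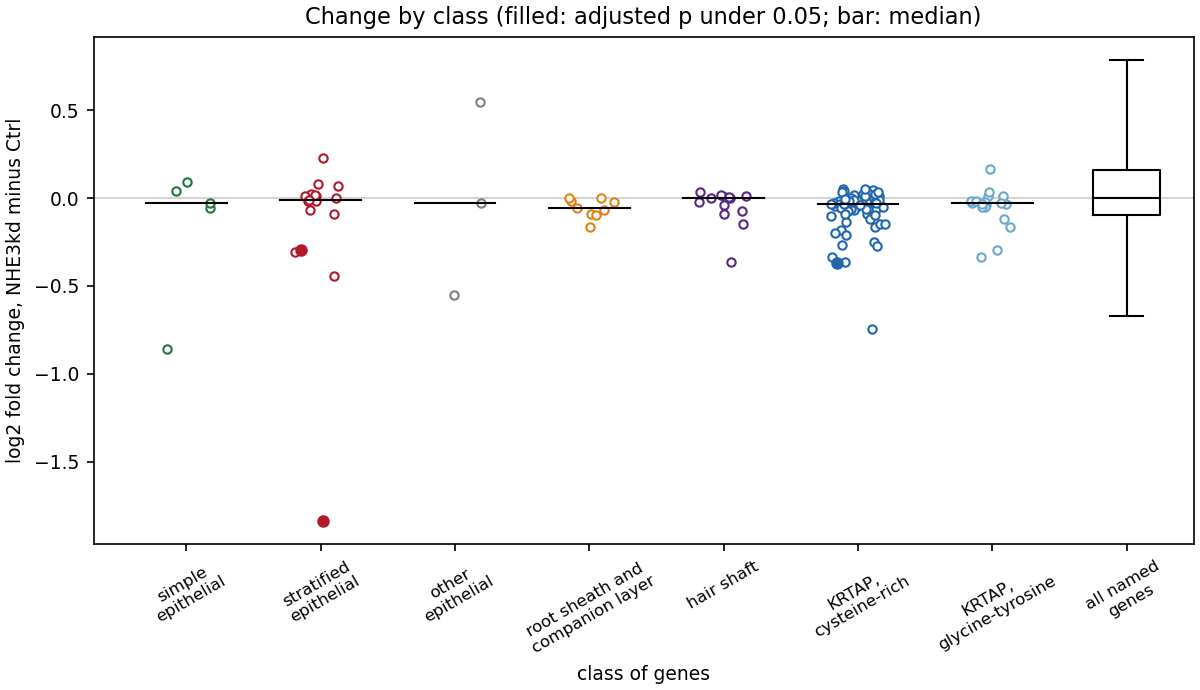
Log2 fold change, NHE3kd minus Ctrl, of each gene (points) by class of keratin or KRTAP gene, with filled points for called genes, a bar at each class median, and a box for all named genes whose whiskers leave out the most extreme genes. Most members lie near 0, and the called genes KRT16, KRT6C and KRTAP5-1 lie at -1.84, -0.29 and -0.37.

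KRT16 showed the largest difference among the members. This type I chain is a marker of wounded and hyperproliferative stratified epithelium. Its values were -1.98, -2.08 and -1.45 in NHE3kd samples 2, 3 and 10, against 0.17, 0.30 and -0.47 in Ctrl samples 1, 4 and 9. The groups were far apart, with the lowest Ctrl sample, number 9, still well above the highest NHE3kd sample. The log2 fold change was -1.84 ± 0.26 (SE, n = 3 each), 3.57-fold lower in NHE3kd, with an adjusted p of 0.015 by limma. Fewer cells with the transcript and less transcript per cell cannot be told apart in these bulk samples. The call was lost without NHE3kd 2, NHE3kd 3 or Ctrl 4, where the adjusted p reached 0.064, although the log2 fold change stayed between -2.07 and -1.69 whichever array was left out.

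KRT6C, a type II chain of the KRT6 group, which pairs with KRT16 in the epidermis of palm and sole, was lower by a much smaller amount. It had -0.27, -0.34 and -0.27 in the NHE3kd samples, against 0.07, -0.003 and -0.07 in the Ctrl samples. The 3 NHE3kd values lay close together and below every Ctrl value. The log2 fold change was -0.29 ± 0.05 (SE, n = 3 each; limma adjusted p = 0.021), a 1.23-fold difference. The KRT6 genes are close copies of each other, and how far the KRT6C probe set also reads KRT6A or KRT6B was not tested. Its call was lost without Ctrl 4 or without any of the NHE3kd samples, with adjusted p up to 0.085.

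The other keratins of stratified epithelia mostly stayed near the Ctrl mean. Of the 17 measured genes of this class 2 were called (11.8%), both lower, beside 14.5% of all named genes, 4.51% lower, and the median log2 fold change was -0.012. KRT15, a type I chain of basal keratinocytes and of the hair follicle bulge, had -0.63, -0.40 and -0.30 in NHE3kd, against -0.24, 0.02 and 0.21 in Ctrl. These groups did not overlap, but the gap was narrow and the gene was not called (log2 fold change -0.44 ± 0.14, limma adjusted p = 0.14). KRT14, the basal type I chain, had -0.58, -0.18 and -0.15 in NHE3kd, against -0.18, -0.10 and 0.28 in Ctrl. Here the groups overlapped, with NHE3kd 3 and NHE3kd 10 level with Ctrl 1, and the difference did not pass the test (limma adjusted p = 0.40). Its partner KRT5 differed by 0.08, with a confidence interval from -0.20 to 0.36, so the basal pair gave no called difference in either chain.

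The suprabasal pair was flat. KRT1 differed by 0.01 (95% interval -0.11 to 0.14) and KRT10 by 0.07 (-0.08 to 0.22). Both intervals of the array values lay within 1.5-fold in either direction. With no expression level known, they do not exclude a larger change of a transcript. Of the mucosal pair, the type II chain KRT4 differed by -0.07 and the type I chain KRT13 by 0.23. KRT13 had 0.12, 0.05 and 0.51 in NHE3kd, against 0.01, 0.00 and -0.01 in Ctrl. All of its NHE3kd values were above the Ctrl values, yet NHE3kd 10 supplied most of the difference and the gene was not called (limma adjusted p = 0.40). The remaining chains of this class, KRT2, KRT3, KRT9, KRT12, KRT76, KRT77, KRT78 and KRT79, ranged in log2 fold change between -0.09 for KRT79 and 0.03 for KRT2, a chain of the upper epidermis.

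The simple-epithelial keratins, which include the colonic chains KRT8, KRT18, KRT19 and KRT20, gave no call among 5 genes, while 14.5% of all named genes were called. KRT8 had 0.07, 0.10 and -0.05 in NHE3kd, against -0.03, -0.20 and 0.24 in Ctrl. Its partner KRT18, the mean of 2 probe sets, had -0.11, 0.07 and 0.32 in NHE3kd, against -0.23, -0.12 and 0.35 in Ctrl. The groups overlapped widely for both chains of the pair. The log2 fold change was 0.04 for KRT8 (95% interval -0.26 to 0.34) and 0.09 for KRT18 (-0.37 to 0.55), and the probe sets of KRT18 gave -0.01 and 0.20.

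KRT19, the short type I chain of gut and duct epithelium, and KRT7, a type II chain of ducts, overlapped between groups in the same way. KRT19 differed by -0.05 (-0.37 to 0.27) and KRT7 by -0.03 (-0.23 to 0.18). The intervals of KRT7, KRT8, KRT18 and KRT19 all lay within a 1.5-fold change in either direction.

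KRT20, the type I chain of differentiated intestinal cells, was the member of this class with the widest gap. It had -0.95, -0.95 and -0.68 in NHE3kd, against -0.26, -0.24 and 0.49 in Ctrl. No NHE3kd value reached a Ctrl value. Its log2 fold change of -0.86 ± 0.22 (SE, n = 3 each) was 1.82-fold lower, but the adjusted p was 0.081 by limma. The Ctrl samples themselves were spread over much of that distance, with Ctrl 9 the highest. Without Ctrl 9 the adjusted p was 0.034, and KRT20 was also called when the adjustment ran over named probe sets only.

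The 5 simple-epithelial keratins shared their highest Ctrl array but not their highest NHE3kd array. All 5 had their highest Ctrl value in Ctrl 9, which was the highest Ctrl array for 38.2% of all named genes, and 4 of 5 did so in NHE3kd 10 among the NHE3kd arrays, against 38.4%. KRT8 was the exception, with its lowest NHE3kd value in NHE3kd 10. Their class median was -0.12, 0.02 and 0.02 in NHE3kd 2, 3 and 10, and -0.09, -0.12 and 0.24 in Ctrl 1, 4 and 9. The median within-group standard deviation of the class was 0.18, well above the 0.074 of all members. What sets Ctrl 9 apart for these genes was not tested.

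**Figure D2:**
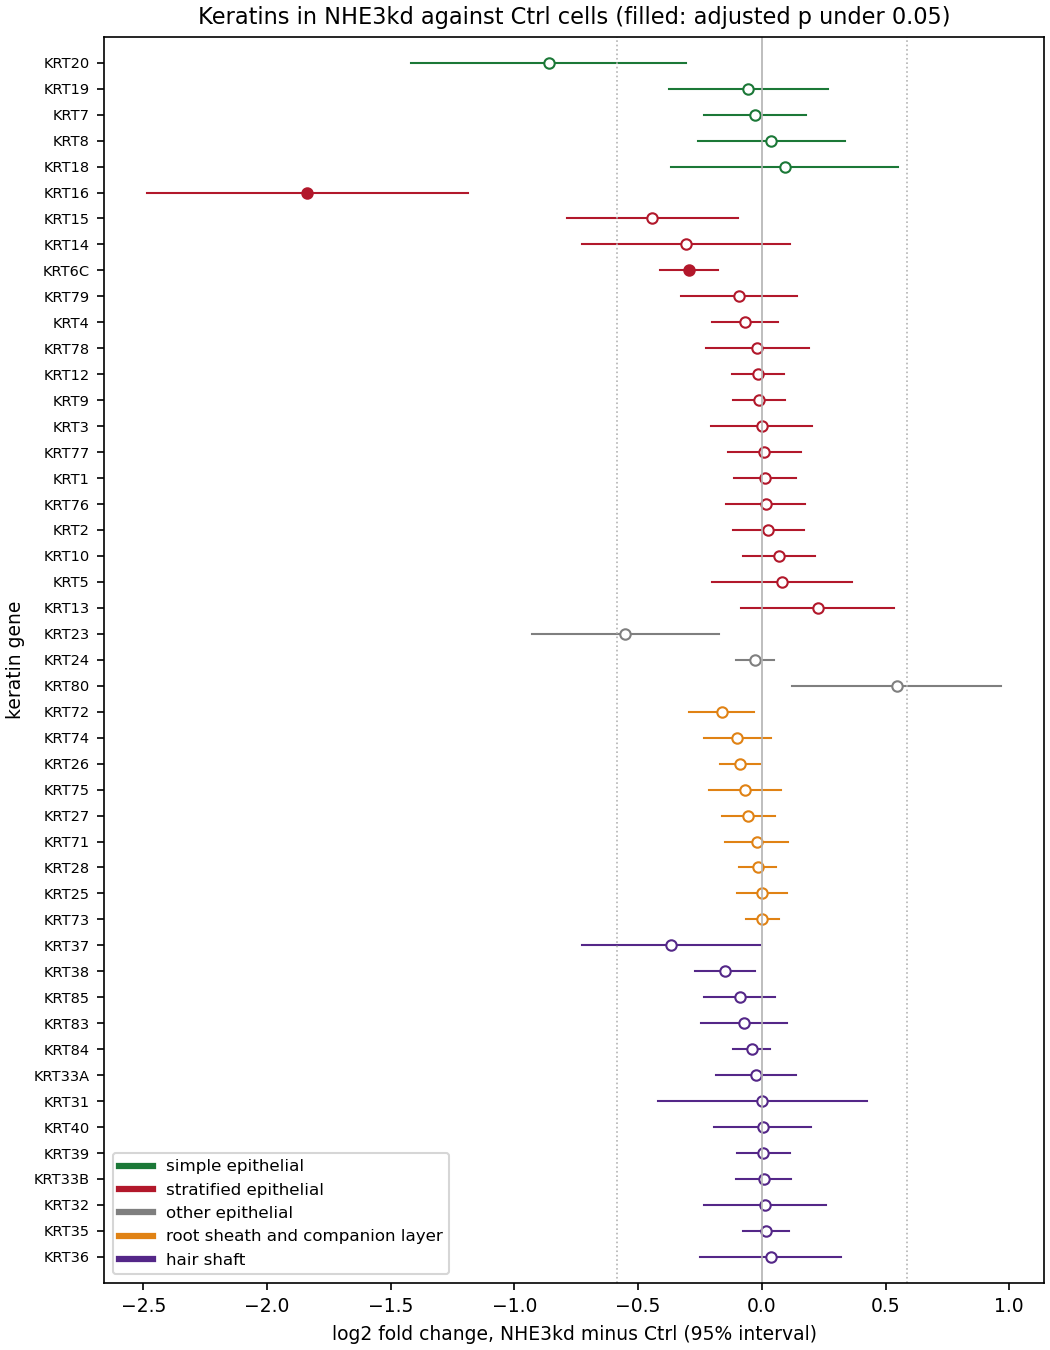
Log2 fold change, NHE3kd minus Ctrl, of the 47 keratins with 95% confidence intervals, coloured by class and filled where called; dotted lines mark 1.5-fold in either direction. KRT16 stands apart at -1.84, followed by KRT20 at -0.86 and KRT23 at -0.55, with KRT80 the highest at 0.54.

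KRT23 and KRT80 belong to neither group and were on opposite sides of 0. KRT23, a type I chain known to be induced by histone deacetylase inhibitors in cancer cells, had -0.68, -0.66 and -0.31 in NHE3kd, against -0.16, -0.10 and 0.26 in Ctrl. Its groups did not overlap, and the log2 fold change of -0.55 ± 0.15 had a limma adjusted p of 0.095. KRT80, a type II chain found in many epithelia, was the highest keratin. Its values were 0.56, 0.20 and 0.87 in NHE3kd, against -0.05, -0.03 and 0.08 in Ctrl. The NHE3kd values were all higher but scattered, which left a log2 fold change of 0.54 ± 0.17 with a limma adjusted p of 0.13, or 0.049 without NHE3kd 3. KRT24, the remaining gene of this kind, differed by -0.03.

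**Figure D3:**
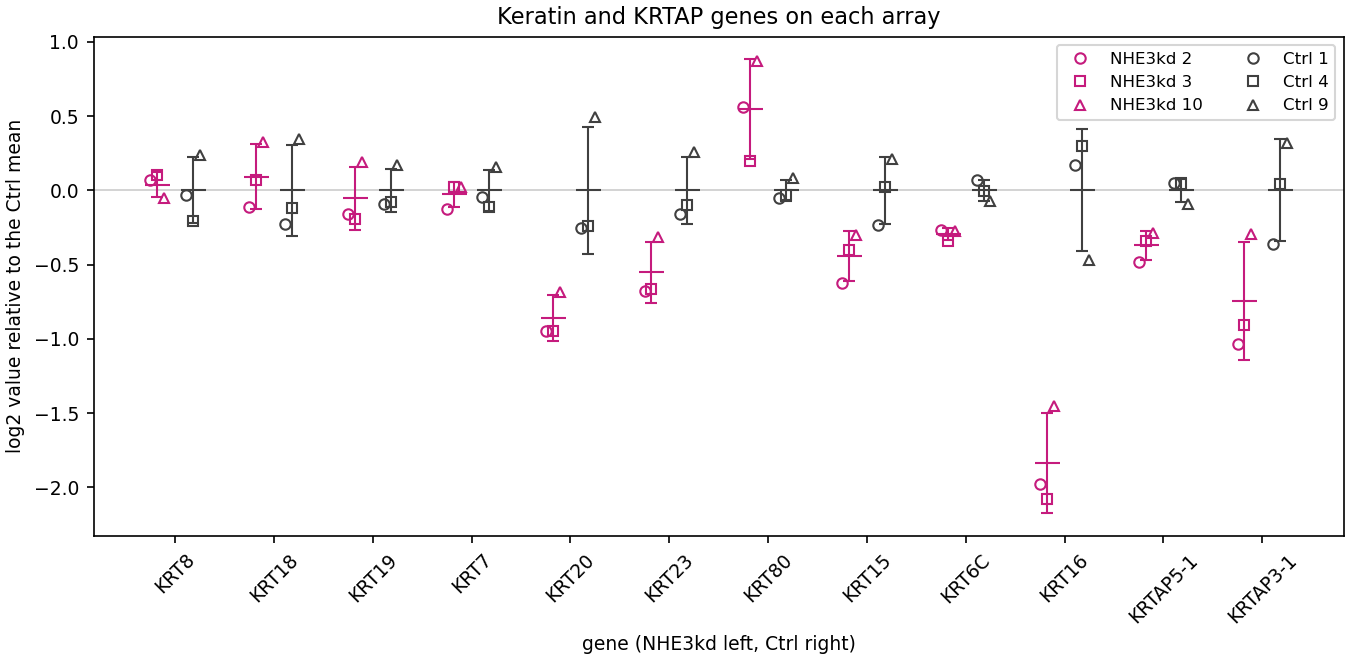
Log2 value on each array, relative to the Ctrl mean, of selected keratins and KRTAP genes in NHE3kd (left) and Ctrl (right) samples, with bars for the mean ± SD of 3 samples. KRT16, KRT6C and KRTAP5-1 separate the groups and were called, while KRT8 and KRT18 overlap.

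The keratins of the hair follicle were close to 0. None of the 9 root sheath and companion layer keratins was called, while 14.5% of all named genes were. Their log2 fold changes lay between -0.16 and 0.00. KRT72, a type II chain of the inner root sheath, was the lowest, with -0.13, -0.17 and -0.19 in NHE3kd, against -0.08, -0.02 and 0.10 in Ctrl (limma adjusted p = 0.15). KRT26, a type I chain of the inner root sheath, followed at an unadjusted p under 0.05 with a difference of -0.09 (limma adjusted p = 0.19). For both genes the arrays of the groups did not overlap, but the gaps were under 0.1. Such genes made up 22.2% of this class, beside 35.8% of all named genes. All 9 intervals lay within 1.5-fold, against 75.7% of all named genes. The 6 values of KRT73 spanned only 0.0057, the smallest spread in the class.

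Of the 13 measured hair shaft keratins none was called, while 14.5% of all named genes were. Their median log2 fold change was 0.00083. KRT37, a type I hair chain, was the lowest at -0.37. It had -0.31, -0.34 and -0.44 in NHE3kd, against -0.07, 0.31 and -0.24 in Ctrl. The NHE3kd values were tight and the Ctrl values wide, so the difference did not pass (limma adjusted p = 0.23). KRT38, its neighbour in the type I family, differed by -0.15 (limma adjusted p = 0.14), and KRT85, a type II chain made early in the hair matrix, by -0.09. These 3 genes were the hair keratins whose groups did not overlap (23.1% of the class), beside 35.8% of all named genes, 14.7% lower. KRT31, a cortex chain, showed how far Ctrl samples alone could part, at -0.21, -0.18 and 0.39, beside a difference of 0.00. The other hair keratins, KRT32, KRT33A, KRT33B, KRT35, KRT36, KRT39, KRT40, KRT83 and KRT84, lay between -0.07 and 0.04.

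By chain type, the 26 type I keratins had a median of -0.016, and 7 of them (26.9%) an unadjusted p under 0.05, all lower. The 21 type II keratins had a median of -0.021 with 3 such genes (14.3%), 2 of them lower. Over all named genes that share was 32.5%. Arrays of the groups did not overlap for 12 of 47 keratins, 10 lower and 2 higher, the higher ones being KRT80 and KRT13. Across all members the groups did not overlap for 21 genes (15.8%), 19 of them lower, against 35.8% of all named genes, of which 14.7% lower. The pseudogene KRT42P differed by -0.12 and was called in one setting, without Ctrl 1.

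The KRTAP genes shifted little and mostly downward. Of 84 genes 1 was called, KRTAP5-1, or 1.19%, beside 14.5% of all named genes (4.51% lower). The median log2 fold change was -0.033, and 65 genes (77.4%) lay below 0, against 50.3% of all named genes. For 63 genes (75%) the difference was under 0.1 in size, against 44.8% of all named genes. For 78 (92.9%) the 95% interval stayed within 1.5-fold, against 75.7%. Absent and unchanged transcripts look alike here too, as no expression level is known. The 66 cysteine-rich genes had a median of -0.035 and the 18 glycine-tyrosine genes a median of -0.030, so both kinds of matrix protein gave similar values. By location, the median was -0.019 over 11 genes on chromosome 11, -0.036 over 29 on chromosome 17 and -0.030 over 44 on chromosome 21. Genes of a family share sequence and are not replicates of each other.

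KRTAP5-1, a cysteine-rich matrix protein, had -0.48, -0.34 and -0.29 in NHE3kd, against 0.05, 0.04 and -0.09 in Ctrl. The groups did not overlap. The log2 fold change was -0.37 ± 0.07 (SE, n = 3 each), 1.29-fold lower, with a limma adjusted p of 0.029. This call held without Ctrl 9 and was lost without any other sample, Ctrl 1 and Ctrl 4 included, with adjusted p up to 0.11. The other 10 genes of its family lay between -0.12 for KRTAP5-2 and 0.05 for KRTAP5-6, and the antisense RNA KRTAP5-AS1 differed by 0.05. KRTAP5-1 was thus the lowest of its family by a wide margin.

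KRTAP3-1, also cysteine-rich, had the lowest log2 fold change of the family group at -0.74. Its values were -1.03, -0.90 and -0.29 in NHE3kd, against -0.36, 0.05 and 0.32 in Ctrl. NHE3kd 10 lay above Ctrl 1, the groups overlapped, and the gene was not called (SE 0.26, limma adjusted p = 0.17). Its neighbours in the family gave -0.27 for KRTAP3-2 and -0.03 for KRTAP3-3. KRTAP10-12 came nearest to a call among the remaining KRTAP genes, with -0.18, -0.26 and -0.31 in NHE3kd, against 0.09, -0.09 and 0.00 in Ctrl (limma adjusted p = 0.069). Its groups did not overlap.

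A handful of further KRTAP genes had an unadjusted p under 0.05 by limma without passing the adjustment. With those above, 6 of 84 KRTAP genes (7.14%) had such a p, beside 32.5% of all named genes. KRTAP6-2, a glycine-tyrosine gene, differed by -0.34 (limma adjusted p = 0.17), KRTAP9-8 by -0.20 (0.14) and KRTAP10-2 by -0.18 (0.17). In each of these genes the NHE3kd arrays were below the Ctrl arrays. Groups did not overlap for 9 of the 84 KRTAP genes (10.7%), beside 35.8% of all named genes. KRTAP9-4, at -0.36, and KRTAP2-3, at -0.33 with an SE of 0.30, completed the lowest 5 with overlapping groups. At the upper end stood KRTAP20-1 at 0.16, KRTAP13-1 at 0.05, KRTAP5-6 at 0.05, KRTAP10-10 at 0.04 and KRTAP27-1 at 0.04, none of them called.

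**Figure D4:**
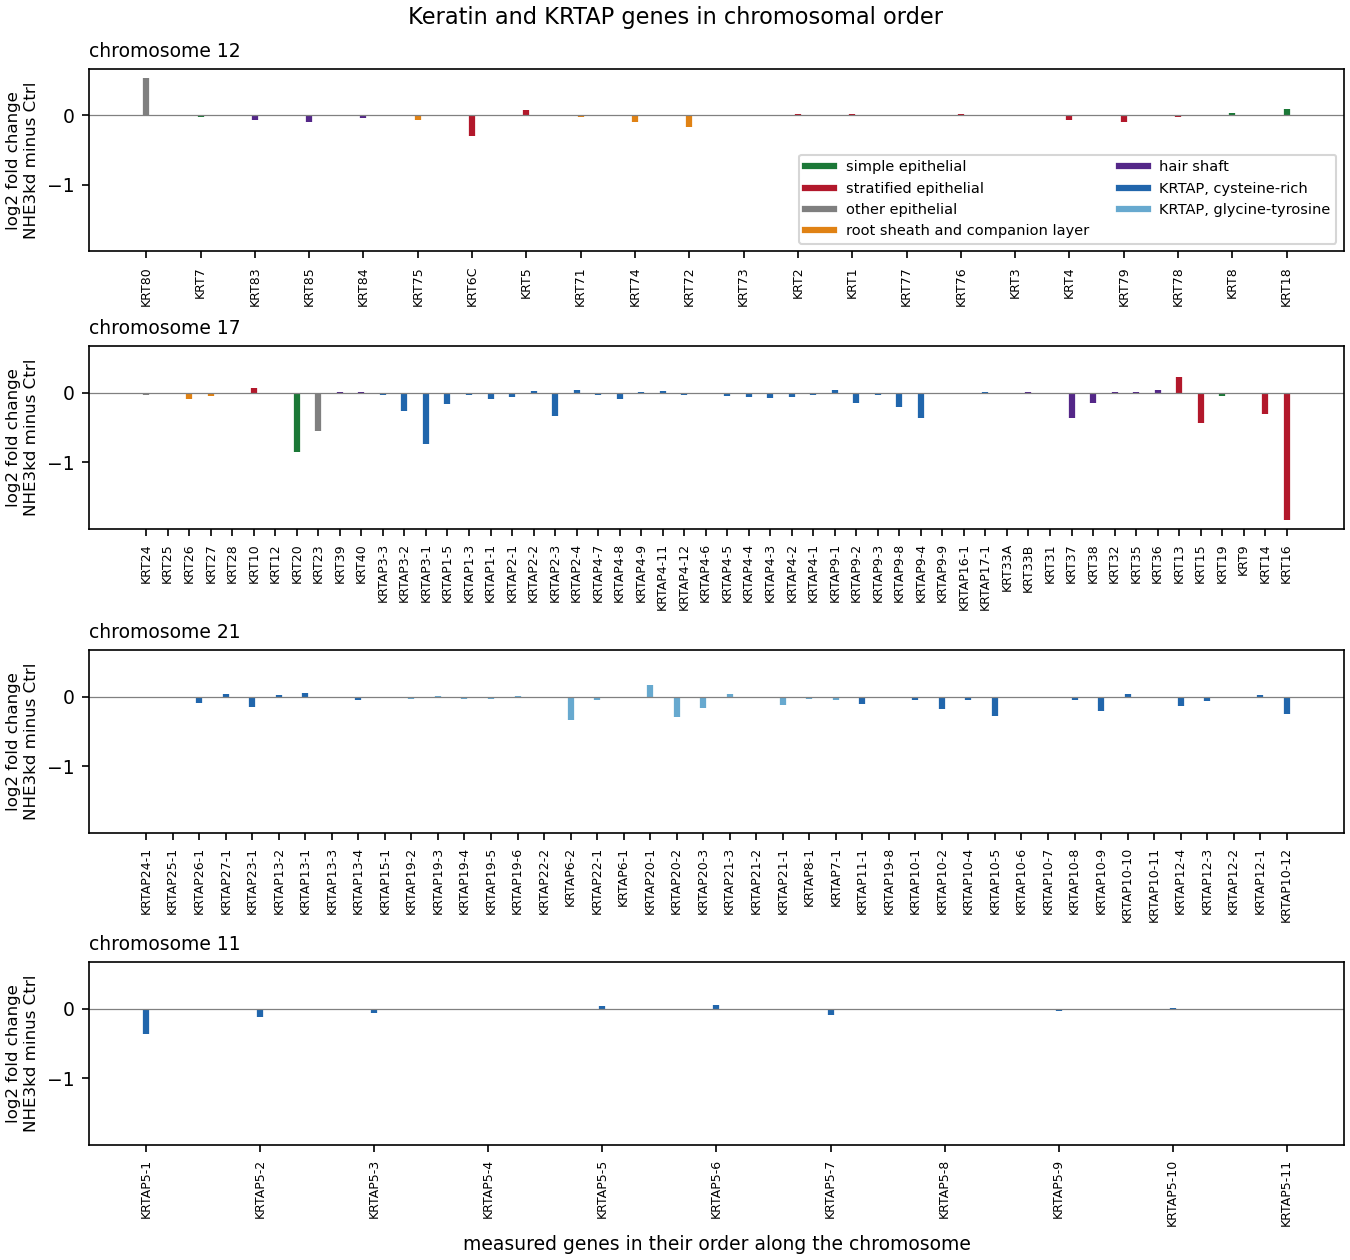
Log2 fold change, NHE3kd minus Ctrl, of the members drawn as bars coloured by class, with the genes in their order along chromosomes 12, 17, 21 and 11 (the pseudogene and the antisense RNA are left out). The longest bars are those of KRT16, KRT20 and KRTAP3-1 on chromosome 17, at -1.84, -0.86 and -0.74. Most bars are short on every chromosome shown, chromosome 17 included.

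Along the chromosomes, the lower values of chromosome 17 lay in several places, as the plot of gene order shows. The clusters held 12 members on chromosome 11, 22 on chromosome 12, 55 on chromosome 17 and 44 on chromosome 21. KRT16, KRT14 and KRT15 are close together in the type I cluster on chromosome 17, and gave -1.84, -0.31 and -0.44, while KRT13 and KRT19 beside them gave 0.23 and -0.05. KRT20 and KRT23, which are next to each other among the measured genes, gave -0.86 and -0.55, and KRT10 close by gave 0.07. On chromosome 12 KRT6C lay between KRT75 at -0.07 and KRT5 at 0.08. None of the genes in these rows other than KRT16 and KRT6C was called.

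The promoters of these genes were compared by class for a feature that the symbols did not use. Windows were available for 2 of 5 simple-epithelial, 9 of 17 stratified-epithelial, 12 of 13 hair shaft and 70 of 84 KRTAP genes. The hair shaft genes KRT40 and KRT85 had several windows. The shares below therefore describe windows and not whole classes. TATAAA, the core of the TATA box, was searched on both strands in the 250 bases before each start in RefSeq (GRCh38.p14). It was found in 72 of 107 promoter windows of 103 members (67.3%), against 10.7% of all 35116 windows. Among KRTAP genes 53 of 70 windows held it (75.7%), among root sheath keratins 6 of 8, among hair shaft keratins 9 of 16 (56.2%), among stratified-epithelial keratins 3 of 9 (33.3%) and among simple-epithelial keratins 0 of 2. The AP-1 motif TGANTCA was found in 6 of 107 member windows (5.61%), all of them of KRTAP genes, against 6.57% of all windows. Within 60 bases before the start and on the strand of the gene, 52.3% of member windows and 2.78% of all windows held TATAAA. KRT16, KRT6C and KRTAP5-1 are named only, with no window in the table used.

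Sequences of the 60 bases before the start of 8 genes are shown to compare simple-epithelial, epidermal, hair and KRTAP promoters, with TATAAA in capitals. The genes were chosen after their values were seen, and a match of letters is a description, not a binding site. All are on the minus strand of GRCh38.p14 and are written in the direction of transcription. KRT8 at chr12:52926470-52926529 and KRT20 at chr17:40885243-40885302 carry no exact TATAAA in these bases, nor do KRT5 at chr12:52520395-52520454 and KRTAP3-1 at chr17:41009129-41009188. KRT20, KRT5 and KRTAP3-1 do hold close variants there, reading cataaaagg, gataaaaag and tatataag. The search counted the exact letters only, so these promoters cannot be taken to lack a TATA box. Whether such a variant serves as one was not tested. KRT10 at chr17:40822615-40822674 and KRT31 at chr17:41397609-41397668 carry it 29 bases before the start, KRT37 at chr17:41424586-41424645 at 30 bases and KRTAP4-1 at chr17:41184912-41184971 at 32 bases.
KRT8: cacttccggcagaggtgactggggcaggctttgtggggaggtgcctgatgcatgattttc
KRT20: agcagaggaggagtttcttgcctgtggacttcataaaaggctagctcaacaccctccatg
KRT5: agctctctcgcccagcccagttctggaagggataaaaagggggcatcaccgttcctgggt
KRT10: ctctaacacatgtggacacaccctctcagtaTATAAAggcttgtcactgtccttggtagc
KRT31: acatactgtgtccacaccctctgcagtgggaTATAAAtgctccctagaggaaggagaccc
KRT37: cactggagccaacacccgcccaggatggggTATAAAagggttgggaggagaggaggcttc
KRTAP3-1: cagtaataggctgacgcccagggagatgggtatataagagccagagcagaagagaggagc
KRTAP4-1: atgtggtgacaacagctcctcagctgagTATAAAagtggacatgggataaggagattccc

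Of 26 listed proteins that anchor, bundle or bind keratin filaments 20 were measured, and 4 were called (20%), with 3 lower and 1 higher in NHE3kd, beside 14.5% of all named genes (4.51% lower, 9.96% higher). The other 16 did not pass the test. TCHH, trichohyalin, which binds keratin filaments in the inner root sheath, had -3.12, -3.57 and -3.47 in NHE3kd, against 0.82, 0.36 and -1.18 in Ctrl. The NHE3kd values were tight while the Ctrl values spread widely, and the log2 fold change was -3.39 ± 0.52 (SE, limma adjusted p = 0.019). SFN, the 14-3-3 sigma protein that binds KRT17, had -1.97, -1.79 and -1.23 in NHE3kd, against -0.05, -0.01 and 0.06 in Ctrl. Its groups were far apart, with a log2 fold change of -1.66 ± 0.19 (limma adjusted p = 0.0086).

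Among the desmosomal proteins, JUP, the plakoglobin of the junction plaque, gave a log2 fold change of -0.56 ± 0.09 (SE, limma adjusted p = 0.021), and PKP4, a plakophilin-like protein of junctions, one of 0.68 ± 0.08 (limma adjusted p = 0.010). DSP, desmoplakin, which ties keratin filaments to the desmosome, differed by -0.41 (limma adjusted p = 0.30). PKP1, a plakophilin of stratified epithelium, differed by -0.93 (0.23), and PLEC, the cytolinker plectin, by -0.44 (0.074). None of them was called, and the groups overlapped for DSP and PKP1. Other uncalled partners were higher, DST at 0.30 (limma adjusted p = 0.20) without overlap and PKP2 at 0.05 with overlap. Of the 20 measured partners 15 lay below 0 (75%), beside 50.3% of all named genes. The groups did not overlap for 7 (35%), beside 35.8%. The calls of JUP and TCHH were lost without several of the samples, Ctrl 4 among them, and those of SFN and PKP4 were kept whichever sample was left out.

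Of 17 other intermediate filament genes 10 were measured and 1 was called (10.0%), beside 14.5% of all named genes. LMNB1, lamin B1 of the nuclear lamina, had 1.20, 1.09 and 0.90 in NHE3kd, against -0.10, 0.08 and 0.02 in Ctrl, a log2 fold change of 1.06 ± 0.09 (limma adjusted p = 0.0043). VIM, the vimentin of mesenchymal cells, differed by -0.08 (limma adjusted p = 0.46), and NES, the nestin of progenitor cells, by 0.70 (limma adjusted p = 0.090). None of the measured cytoplasmic filament genes outside the keratins was called.

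Transcription factors known to act on keratin genes or in the epithelia that use them were listed as a last group, with 22 of 34 measured and 4 called (18.2%), beside 14.5% of all named genes. GATA6, a factor of gut epithelium, was higher by 0.56 ± 0.04 on the log2 scale (SE, limma adjusted p = 0.0036), KLF5, a factor of proliferating crypt and basal cells, by 0.62 ± 0.12 (0.040) and GRHL2, a grainyhead factor of epithelial junctions, by 0.47 ± 0.09 (0.037). OVOL1, a zinc finger protein of differentiating epidermis, stood lower at -0.59 ± 0.08 (limma adjusted p = 0.012). GATA6 kept its call whichever sample was left out, while GRHL2 kept it only without Ctrl 9 and KLF5 only without NHE3kd 10, and OVOL1 lost it without Ctrl 4 or NHE3kd 3. HOXC13, the homeobox factor of hair keratin genes, differed by 0.43 without a call (limma adjusted p = 0.18), beside a median of 0.00083 over the hair shaft keratins. KLF4, a factor of differentiated epithelium, differed by 0.16. GRHL1, another grainyhead factor, had the lowest value of the list at -0.80, without a call (limma adjusted p = 0.16). Its groups did not overlap. Of the 22 measured, 8 lay below 0 (36.4%), against 50.3% of all named genes.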

How the data were processed

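The authors extracted total RNA, labelled it for Affymetrix Human Gene 2.0 ST arrays and summarised probe sets with RMA16 in GeneSpring GX (build hg19 in the submitters' processing notes). The deposited values are log2 values centred by the authors on the Ctrl mean, which lay within 1.27e-06 of 0 for every probe set. Probe sets were named through the platform annotation, with RefSeq symbols (GRCh38.p14) matched by Entrez ID, and 16098 of 48144 had a symbol. A gene's probe sets were averaged. All 6 arrays were fitted with limma 3.58.1 in R 4.3.3 (lmFit, eBayes, two-sided, Benjamini-Hochberg over all probe sets, no covariates), with 1.61 prior and 4 residual degrees of freedom, and the procedure was tested on simulated data. The members, classes, lists and tests were chosen with earlier results of these data known. Named in the text are the keratins, KRTAP genes called, at an unadjusted p under 0.05 or among the 5 highest or lowest, and genes of the other lists that were called. Further list genes and single KRTAP genes (such as DSP, PLEC, KLF4, GRHL1, TFF3, CEACAM6, CD14 and KRTAP3-2) were named after their values were seen. The number of arrays limits the precision, and scanner files were not used, so scan batches were not analysed. Alternatives changed the variance model, weights, scaling, probe sets and samples.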

Additional observations from a re-analysis of the deposited data

How the results depend on the processing

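Under no moderation of the variances, unequal variances, quantile normalization and a test against 1.5-fold, 0 members were called in place of 3, which leaves 0 of 2 stratified-epithelial keratins and 0 of 1 KRTAP genes. The same 4 settings called 0, 0, 1 and 0 keratin partners in place of 4, and 1, 0, 0 and 0 keratin regulators in place of 4. Other intermediate filaments gave 0 calls in place of 1 under unequal variances, quantile normalization and 1.5-fold. Over all named genes these settings called 2.89%, 0.0134%, 1.87% and 0.551%. With named probe sets only, 1 simple-epithelial keratin (KRT20) and 2 other intermediate filaments were called.

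When each sample was left out in turn, the members called ranged between 0 and 4 (0 without Ctrl 4, 4 without Ctrl 9), while 6.01% to 12.9% of all named genes were called. The range was 0 to 2 for stratified-epithelial, 0 to 1 for simple-epithelial, 0 to 1 for other epithelial keratins, 0 to 1 for KRTAP genes, 2 to 7 for partners, 1 to 2 for other intermediate filaments and 1 to 4 for regulators. Members that gained a call with a sample left out were KRTAP9-2 (NHE3kd 2), KRT80 (NHE3kd 3), KRT42P (Ctrl 1) and KRT20 (Ctrl 9).

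Medians of log2 fold changes with the arrays at the same median were -0.021 for all members, -0.00441 for stratified-epithelial keratins, -0.026 for KRTAP genes and 0.0066 for all named genes. After quantile normalization they were -0.022 for stratified-epithelial, -0.035 for root sheath and -0.015 for hair shaft keratins, -0.025 for KRTAP genes and 0.000173 for all named genes. With a sample left out they ranged between -0.041 and -0.025 for members, -0.039 and 0.021 for stratified-epithelial, -0.074 and -0.017 for root sheath and -0.036 and -0.00439 for hair shaft keratins, -0.042 and -0.028 for KRTAP genes and -0.00523 and 0.00365 for all named genes. Over 70 named genes and 1050 values under alternatives, 908 kept direction and call status, 77 lost the call and 4 gained it. A further 61 turned sign with no call on either side, and 0 reversed a call. Only genes called at first could lose a call: 3 members, 4 partners, 1 other intermediate filament and 4 regulators. Most of the 70 genes were never called and count as kept by staying so. The 908 therefore does not measure how well the calls held. Signal over background is unknown in centred values, so no filter on dim probe sets was tried. No paired analysis was possible because the groups share no replicate number.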
